A study of Drosophila melanogaster with 6 samples.

Results

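The cytosolic ribosomal protein genes of Drosophila melanogaster were taken as the protein-coding genes whose symbol begins with RpL or RpS followed by a digit or P, together with sta, while genes of the mitochondrial ribosome (mRp symbols) were left out. They numbered 93 of 13922 protein-coding genes in the RefSeq table of Release 6, with 54 genes of the large subunit and 39 of the small subunit. The gene known as sop carries the symbol RpS2 in that table and was counted under it. The gene spans, introns included, ran between 304 and 4677 bp, with a median of 1318 bp.

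Ribosomal proteins bind the ribosomal RNAs and fold them into the large and the small subunit, whose joining on a messenger RNA forms the ribosome that makes every cytosolic protein. Their messenger RNAs are short and are among the most abundant in almost every cell, and in flies the loss of a single copy of many of these genes gives the slow development and thin bristles of the Minute phenotype. Many of the genes also carry small nucleolar RNAs (snoRNAs) in their introns, which guide 2'-O-methylation or pseudouridylation of ribosomal RNA. N6-methyladenosine (m6A) is an internal modification of messenger RNA that the study mapped with an antibody.

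The study compared 3 m6A-CLIP libraries with 3 input libraries, all from heads of male and female w1118cs flies kept on a standard cornmeal and glucose diet at 25 °C. Each biological replicate used poly(A)-selected RNA (20 ug) of about 800 sieved heads; in the CLIP libraries fragments were crosslinked by ultraviolet light to an antibody against m6A and recovered with it, and in the input libraries they were not recovered with the antibody. No genotype, diet or age was varied, so CLIP against input was the only contrast. The labels give the cell type as neurons although whole heads were used.

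The deposited data are 3 lists of peaks, 1 for each CLIP library with its same-numbered input, here lists 1, 2 and 3. They held 14329, 7232 and 6645 peaks, each made of bins of 50 bp, and every peak came with its CLIP reads per bin and its input reads per bin, neither scaled to library size. The CLIP reads summed over all peaks of a list were 1186393, 20396270 and 5880782, and the depth of the whole libraries was not given. All 3 lists had a floor on CLIP reads, at 7, 25 and 7 reads per bin, so a stretch with few input reads could enter a list only with a high ratio of CLIP to input. Genes that mark neurons had peaks in all 3 lists in 4 of 5 cases, against 13.7% of all protein-coding genes. So did 5 of 5 photoreceptor, 3 of 4 glial, 4 of 4 muscle and 2 of 4 fat body genes. Their median spans were 27653, 6551, 7094, 37138 and 2082 bp in that order, against 2163 bp over all protein-coding genes. The part of span in these counts was not tested.

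Peaks were found in nearly all ribosomal protein genes. Of the 93 genes, 82 (88.2%) had a peak in all 3 lists, while 13.7% of all protein-coding genes did. The counts by list were 82, 83 and 83 genes, beside a background of 27.3% of all protein-coding genes in list 1, 17.6% in list 2 and 16.9% in list 3. Among the 10192 protein-coding genes whose span fell in the range of the ribosomal protein genes, these included, 5.48% had a peak in all 3 lists. The large subunit had 49 of 54 genes (90.7%) in all 3 lists and the small subunit 33 of 39 (84.6%).

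A peak in all 3 lists was less frequent in each of the gene lists of related function, a difference that was not tested. None of 73 mitochondrial ribosomal protein genes had a peak in all 3 lists, and 70 of them had no peak in any list. Among the 51 translation factor genes, 21 (41.2%) had a peak in all 3 lists, including eEF1alpha2, an elongation factor that brings aminoacyl-tRNA to the ribosome, and eIF4A, the helicase of the cap-binding complex. None of 48 proteasome subunit genes was in all 3 lists, although 30 had a peak in list 1. Of 6 genes for proteins of the snoRNA particles, 2 were in all 3 lists, nop5 and Nop60B. Peaks over snoRNA genes were not set apart in the gene lists of related function. In RNA of whole heads, fewer cells of a type and less RNA per cell cannot be told apart, and the input reads at these lists' genes outside peaks were not analysed here.

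The 10 ribosomal protein genes without a peak in any list were RpL10Aa, RpL22-like, RpL37-2, RpL7-like, RpLP0-like, RpS10a, RpS19b, RpS28-like, RpS28a and RpS5b. All of them are a second copy or a relative of another ribosomal protein gene by name, and RpS5b, RpS19b and RpL22-like are known mainly from the fly gonads. In 5 of 8 pairs of genes whose symbols differ only in a final a or b, 1 copy had peaks in all 3 lists and the other had none. The copies with peaks were RpL10Ab, RpS10b, RpS19a, RpS28b and RpS5a. RpL24-like, whose yeast relative Rlp24 is an assembly factor of the large subunit, had 3, 3 and 1 peaks in lists 1, 2 and 3, with 5.93% of its span covered in list 3, and it was 1 of the least covered genes.

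The other pairs of copies had peaks in both genes, and reads of near-identical copies may be split or shared between them, so their values are uncertain. RpL34b had 55.6%, 55.6% and 50.5% of its span in peaks in lists 1, 2 and 3, while RpL34a had 11.8%, 5.90% and 5.90%. No stretch of RpL34a lay in a peak of all 3 lists. RpS14a and RpS14b lie side by side on chromosome X. RpS14a had 40.3%, 53.4% and 48.1% of its span in peaks, and RpS14b had 15.9%, 44.7% and 44.7%, so both were covered least in list 1. RpS15Aa had 5, 2 and 1 peaks that covered 16.9%, 29.0% and 31.4% of its span. RpS15Ab had no peak in list 1, and 2 and 3 peaks in lists 2 and 3. Coverage was thus lower in list 1 than in lists 2 and 3 in all 4 genes of the RpS14 and RpS15A pairs, a pattern noticed in the values, while list 1 had the highest median coverage over all ribosomal protein genes.

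Ribosomal protein genes held 271, 255 and 283 peaks in lists 1, 2 and 3 (269.7 ± 14.05, SD, n = 3 lists). These were 1.89%, 3.53% and 4.26% of the peaks of the lists. Their peaks were wider than those of the lists as a whole, so the shares of the bases in peaks were larger, at 3.79%, 6.66% and 7.71%. A median peak of a ribosomal protein gene had 3 bins in every list, against 1 bin over all peaks. Peaks of 6 bins or more made up 27.3%, 25.1% and 19.8% of the ribosomal protein peaks, and 6.58%, 6.42% and 4.82% of all peaks. The widest was the 1100 bp peak of RpLP0 in lists 1 and 2, and the 850 bp peak of RpS2 in list 3. Of the 809 peaks, 808 lay on the strand that held the gene's other peaks, and the 1 exception was a list 1 peak at RpL27 that also lay in another gene's span. In all, 21 peaks at RpL41, RpS27A, RpL23A and RpL27 lay in the span of another protein-coding gene too, and 147 peaks overlapped a snoRNA gene.

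The median share of the gene span in peaks was 47.8%, 42.9% and 42.2% among the 82 genes. At least 50% of the span was in peaks in every list for 63 protein-coding genes of the genome (0.453%), and 23 of them (36.5%) were ribosomal protein genes. Among genes with a peak in all 3 lists, 28.0% of the ribosomal protein genes passed this limit, against 2.2% of the 1822 other genes. Since the share depends on the length of the span, the closer comparison is with the 477 other genes in the span range of the ribosomal protein genes, of which 37 (7.76%) passed. RpLP2, a protein of the acidic stalk that recruits elongation factors, was covered over 96.4% of its 604 bp in each list. RpL21 followed with 83.7%, 77.1% and 71.9%, and RpLP0, the base of the stalk, with 76.3%, 73.2% and 64.8%. Apart from RpL34a, RpL24-like and RpS15Ab, the least covered genes were RpL5 and RpS5a. RpL5, which carries 5S ribosomal RNA into the large subunit, was covered over 23.9%, 22.8% and 23.9% of a span of 4606 bp. RpS5a, a small subunit protein near the mRNA exit, was covered over 24.6%, 23.8% and 25.7% of a span of 4677 bp.

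**Figure D1:**
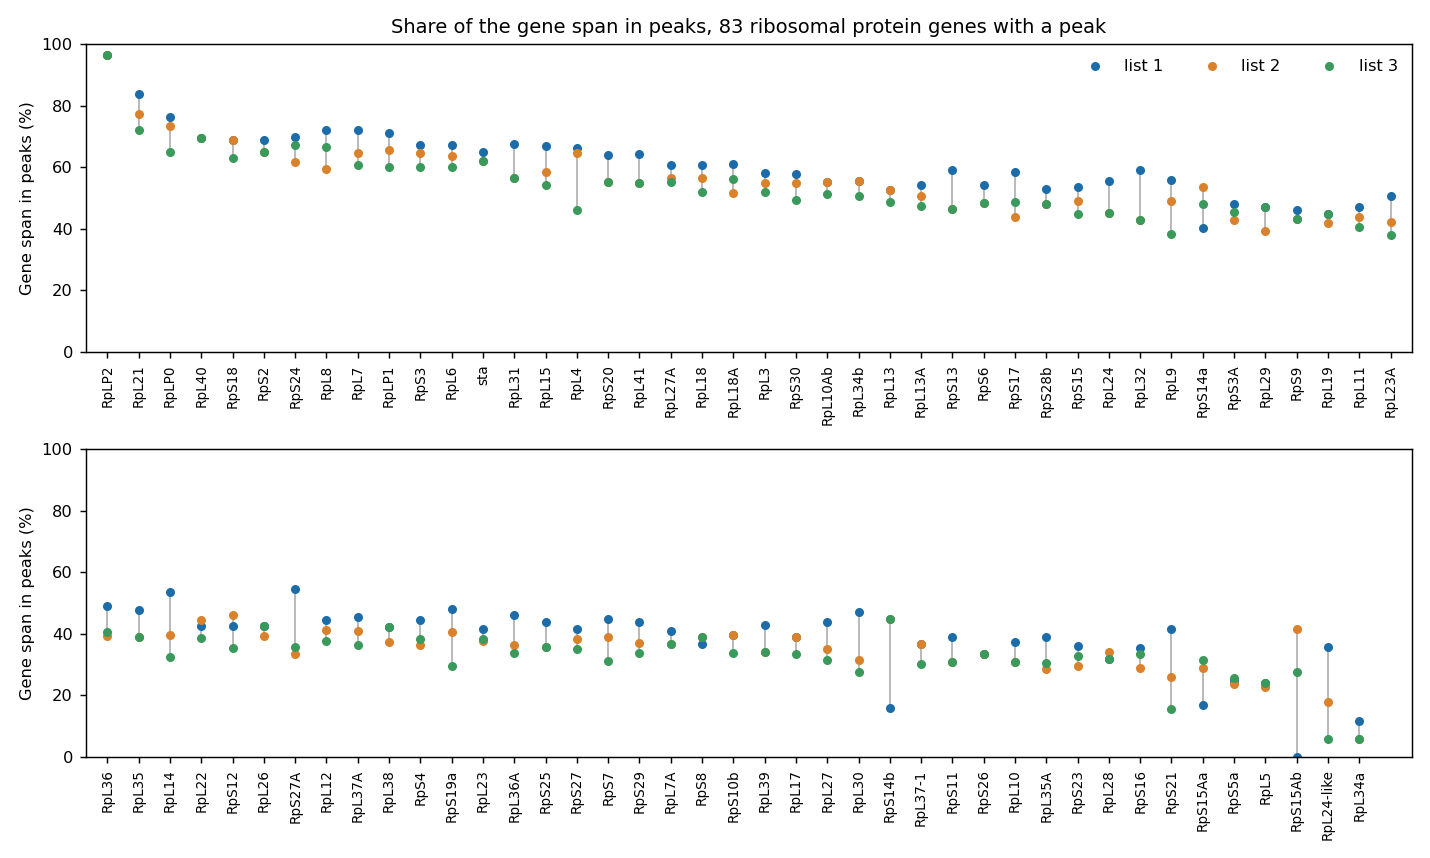
Share of the gene span in peaks (%) for the 83 ribosomal protein genes with a peak, ordered by their mean over the lists. Each point is 1 list and each grey line joins the lowest and the highest list. RpLP2 stands at 96.4% in every list, and RpS15Ab has no peak in list 1.

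Along the span, peaks were sparse at the start and dense in the middle and towards the end. The spans of 81 genes that could be oriented by the strand of their peaks were each divided into 10 equal segments. In the first segment 14.3% lay in peaks, in the second 23.3% and in the third 40.5%, as means of the 3 lists. The share was highest in the eighth segment, at 60.5%, and was 49.3% in the last. In 449 other genes with a peak in all 3 lists and a span in the same range, the first segment had 19.3%, the eighth 30.3% and the last 29.8%. In the first segment the ribosomal protein genes were covered less than these other genes in all 3 lists. Their shares were 18.2%, 11.2% and 13.4%, against 27.6%, 14.4% and 15.8% (14.3% ± 3.59 against 19.3% ± 7.27, SD, n = 3 lists). The difference was not tested. From the second segment on the ribosomal protein genes were covered more in all 3 lists, though by little in the second segment of list 1 (27.8% against 27.4%). The spans include introns and untranslated regions, and exons were not analysed here.

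**Figure D2:**
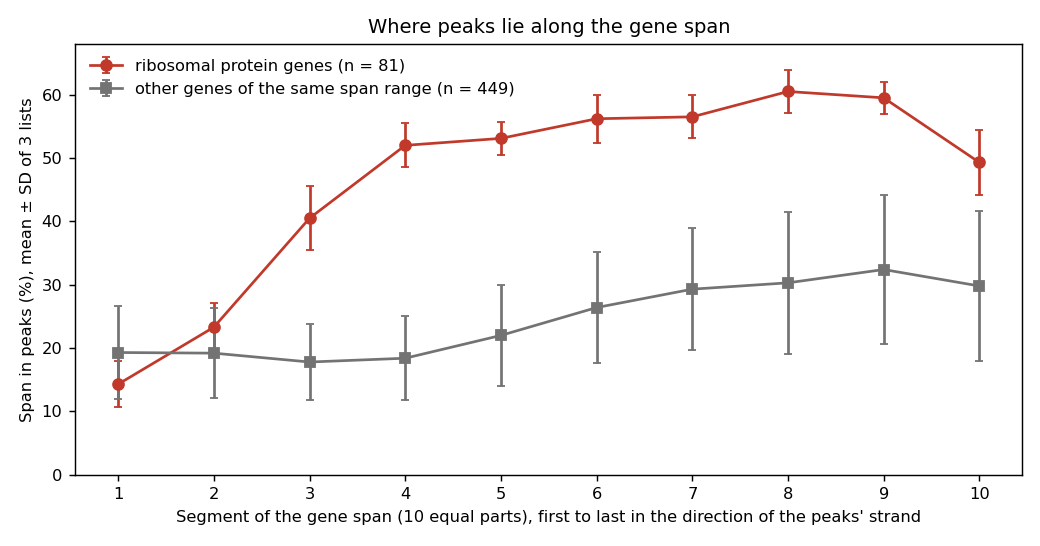
Share of each of 10 segments of the gene span in peaks (%), from the first to the last in the direction of the peaks' strand, as the mean ± SD of the 3 lists. Ribosomal protein genes (red, n = 81) go up to 60.5% in the eighth segment, and other genes of the same span range (grey, n = 449) to 32.4% in the ninth.

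The read levels set the ribosomal protein peaks apart by input more than by CLIP. Their median CLIP level was 28.3, 66.8 and 16.8 reads per bin in lists 1, 2 and 3, against 10, 38 and 10 over all peaks. Their median input level was 77.4, 66.2 and 66.4 reads per bin, against 8, 13 and 14 over all peaks. The median log2 ratio of CLIP to input was accordingly lower, at -1.33, 0.10 and -1.85 in ribosomal protein peaks and 0.17, 1.58 and -0.42 over all peaks. CLIP lay below input in 94.1%, 45.5% and 97.5% of the ribosomal protein peaks and in 44.3%, 17.0% and 55.7% of all peaks. The lists thus differed in their overall ratio, and the ribosomal protein peaks stood lower than the whole list in each of them. Because the ratio is of unscaled reads, its sign says nothing of enrichment.

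The CLIP levels were closer to those of other peaks within a restricted input range, where input levels are held closer by the selection. Among peaks with 50 to 100 input reads per bin, the median CLIP level in ribosomal protein genes was 30.6, 69.0 and 17.5 reads per bin, over 133, 151 and 173 peaks. In the other peaks of that range it was 26.0, 49.1 and 15.0 reads per bin, over 280, 482 and 378 peaks. The ribosomal protein peaks there were also wider, with medians of 4, 4 and 3 bins against 3, 2 and 2, and had more input in every list, with medians of 78.9, 69.7 and 69.2 reads per bin against 63.2, 63.0 and 63.5. The part of width and input in the difference in CLIP level was not tested.

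**Figure D3:**
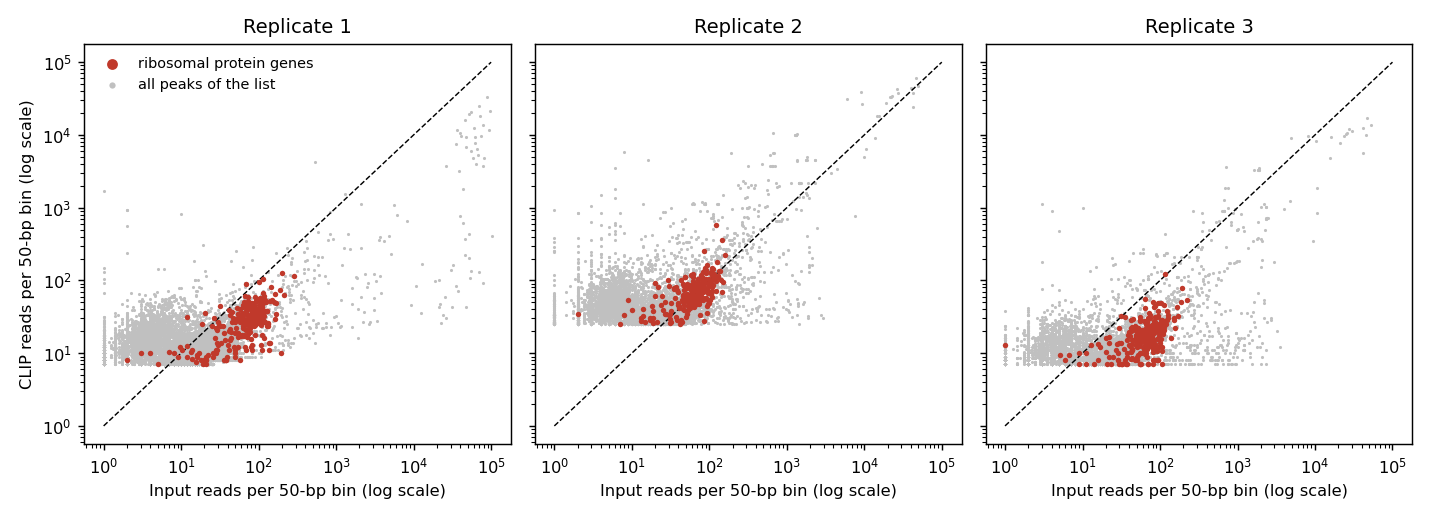
CLIP reads per 50-bp bin against input reads per 50-bp bin for each peak, both on log scales, in replicates 1, 2 and 3. Red points are peaks of ribosomal protein genes, grey points all peaks of the list, and the dashed line marks equal reads. The red points have median input levels of 77.4, 66.2 and 66.4 reads, and most lie below the line in replicates 1 and 3, with 45.5% below it in replicate 2.

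To compare the replicates at the same places, overlapping peaks of the same strand were joined into 3307 regions that held a peak of every list. Of these, 213 lay in 81 ribosomal protein genes, with a median of 2 per gene, up to 9 in RpL3, and 57900 bp in all. The ratio of CLIP to input at each region was taken on the log2(reads per bin + 1) scale after each library had been centred on its median over all shared regions, so that 0 stands for the median shared region. The median over ribosomal protein regions was -2.06, -1.74 and -1.95 in replicates 1, 2 and 3 (-1.92 ± 0.16, SD, n = 3). Of the 213 regions, 212 had a mean below 0 and 207 were below 0 in every replicate. With limma and an adjusted p under 0.05, 203 regions (95.3%) were lower and 0 higher, against a background of 42.9% lower and 40.1% higher among all shared regions. At an unadjusted p under 0.05 the counts in ribosomal protein genes were 204 lower and 0 higher. The SD of the centred ratio was 0.56 over the 213 regions and 1.52 over all shared regions, which span a wider range of input.

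As a set, ribosomal protein regions did not show this shift relative to regions of like input, that is of the same class of mean input. Input is the denominator of the ratio and also set these classes, and CLIP reads had a floor, so part of this is built in. The cause of the shift was not tested. When all shared regions were ranked by mean input and divided into 10 input classes of equal size, 193 of the 213 ribosomal protein regions (90.6%) were in the top 2 classes, against 15.2% of the other regions. They made up 40.2% of the regions of the top class. Within the top 2 classes the median centred ratio was -1.96 ± 0.16 in ribosomal protein regions and -1.90 ± 0.06 in the 469 other regions (SD, n = 3 replicates), and 98.4% and 93.2% of them were called lower. Input was not equal there, with medians of 86.9, 70.3 and 70.4 reads per bin in ribosomal protein regions, against 63.2, 64.3 and 59.5 in the others. The SD over regions there was 0.46 in ribosomal protein regions and 0.81 in the others. Where each library was instead centred within each class on regions of other genes, a comparison added after the data had been seen, the median was 0.02, 0.17 and 0.20 in replicates 1, 2 and 3 (0.13 ± 0.09). By that measure limma called 4 of the 213 ribosomal protein regions higher, against 134 of all 3307 shared regions (4.05%). It called 2 of the 213 lower, against 20 of all 3307 (0.605%). Calls of either kind were thus few, and the higher calls were a smaller share than over all shared regions. With the centring on all regions of each class, 4 of the 213 were higher and 4 lower, against 135 and 22 of all 3307.

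**Figure D4:**
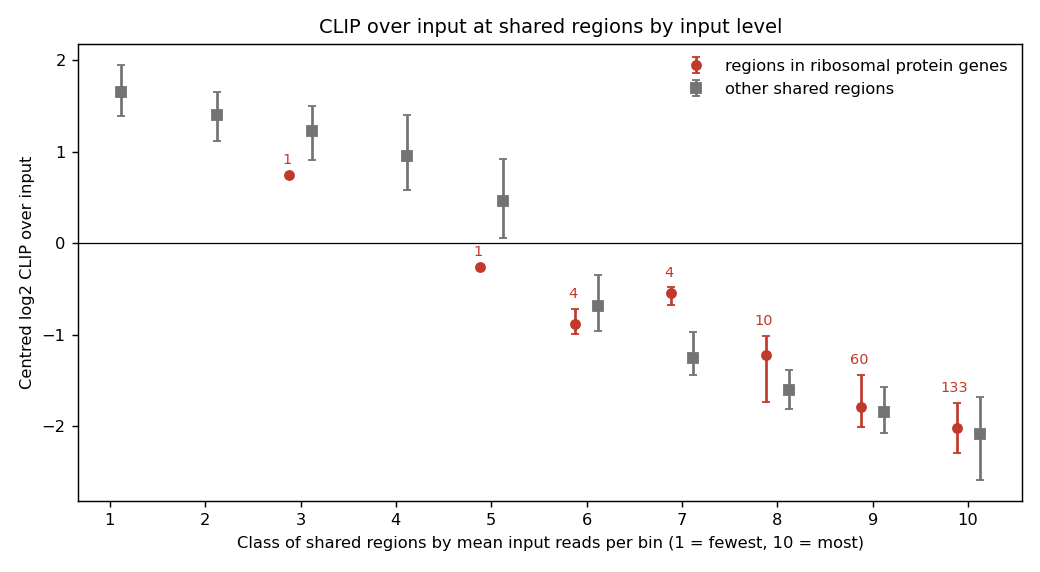
Centred log2 ratio of CLIP to input at shared regions, by class of mean input reads per bin (10 classes of equal size). Points are medians and bars run between the quartiles, for regions in ribosomal protein genes (red, with their number) and other regions (grey). Of the 213 red regions, 193 fall in the top 2 classes, where both medians lie near -2.

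The ratio varied among the genes, and a single region stood for each gene in this comparison, the one with most CLIP reads that lay over no snoRNA gene and in no other gene's span. Of the 80 genes with such a region, RpS27 and RpS15 had the highest ratios. RpS27, a zinc-finger protein of the small subunit, had CLIP levels of 39.0, 80.5 and 23.7 reads per bin in replicates 1, 2 and 3, against 41.8, 37.1 and 38.4 in input. The centred ratio was -0.82, -0.72 and -0.80 (-0.78, SE 0.20, limma adjusted p = 0.00623). RpS15, a protein of the head of the small subunit, had CLIP levels of 61.0, 119.2 and 30.0 reads per bin, against 66.3, 58.6 and 47.8 in input. Its centred ratio was -0.84, -0.81 and -0.78 (-0.81, SE 0.21, limma adjusted p = 0.00608). Both were thus lower than the median shared region in every replicate, and in unscaled reads CLIP was above input in replicate 2 and below it in replicates 1 and 3. Against regions of other genes with like input both were called higher, RpS27 by 0.85 (limma adjusted p = 0.0458) and RpS15 by 1.03 (limma adjusted p = 0.0244).

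RpS30, RpL24-like and RpL34b were next. RpS30, made as a fusion with a ubiquitin-like protein, had CLIP levels of 40.2, 97.8 and 55.7 reads per bin, against 71.0, 62.4 and 65.0 in input. Its replicates were unequal, with centred ratios of -1.53, -1.18 and -0.34 (-1.02, SE 0.33, limma adjusted p = 0.0179). The call was lost without replicate 1 (adjusted p = 0.112) or without replicate 2 (adjusted p = 0.0748). RpL24-like had few reads, with CLIP levels of 9.5, 32.0 and 7.0 reads per bin, against 16.2, 14.0 and 14.0 in input, and a centred ratio of -1.05 (SE 0.22, limma adjusted p = 0.00187). RpL34b, a large subunit protein, had CLIP levels of 33.8, 75.5 and 18.0 reads per bin, against 61.2, 34.8 and 38.5 in input, with a centred ratio of -1.16 (SE 0.26, limma adjusted p = 0.00309). Against regions of other genes with like input, none of these genes was called. RpS30 stood at 0.83, RpL24-like at -0.28 and RpL34b at 0.69 (limma adjusted p = 0.212, 0.501 and 0.196).

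The lowest ratios were those of RpS16, RpS27A, RpS14b, RpL14 and RpL27. RpS16, a small subunit protein whose tail contacts the tRNA in the P site, had CLIP levels of 31.0, 54.5 and 10.5 reads per bin, against 85.7, 84.1 and 82.2 in input, and a centred ratio of -2.53 (SE 0.24, limma adjusted p = 0.000111). RpS27A, which is made as a fusion with ubiquitin, had CLIP levels of 38.0, 66.9 and 18.3 reads per bin, against 124.0, 105.8 and 109.1 in input, and a centred ratio of -2.51 (SE 0.22). In both genes CLIP lay below input in all 3 replicates. RpS14b reached -2.50 (SE 0.41) with replicates far apart, at -3.96, -1.70 and -1.84, and its reads are uncertain because of RpS14a. RpL14 stood at -2.45 (SE 0.22) and RpL27 at -2.37 (SE 0.22), both large subunit proteins. None of these 5 regions was called against regions of like input, where their adjusted p ran from 0.333 for RpS27A to 0.678 for RpS14b.

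The stalk is built of RpLP0 at its base and of RpLP1 and RpLP2. RpLP1 had CLIP levels of 41.4, 132.6 and 50.1 reads per bin, against 90.0, 83.4 and 81.3 in input, and a centred ratio of -1.27 (SE 0.27, limma adjusted p = 0.00248). RpLP2 had CLIP levels of 53.1, 106.2 and 38.4 reads per bin, against 111.7, 83.2 and 94.4 in input, and a centred ratio of -1.55 (SE 0.24, limma adjusted p = 0.000415). RpLP0 had CLIP levels of 26.5, 58.1 and 16.8 reads per bin, against 74.1, 53.7 and 56.6 in input, and a centred ratio of -1.90 (SE 0.22, limma adjusted p = 0.000142). RpLP1 and RpLP2 had more CLIP reads than RpLP0 in every replicate, and their centred ratios were less negative than that of RpLP0 in every replicate. RpLP1 and RpLP2 did not differ beyond their errors, and their order turned in replicate 1, where RpLP1 was at -1.82 and RpLP2 at -1.78. The differences between these genes were not tested. Counted from the lowest ratio of the 80 genes, RpLP1 had rank 73, RpLP2 rank 65 and RpLP0 rank 41.

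Other proteins with well-known roles ran from rank 56 to rank 8, counted from the lowest ratio of the 80 genes. RpL3, which lies close to the peptidyl transferase centre, had CLIP levels of 41.0, 103.9 and 24.6 reads per bin, against 99.2, 74.5 and 83.6 in input, and a centred ratio of -1.73 (SE 0.22), at rank 56. RpS2 had a single peak in each list that covered 68.8%, 64.9% and 64.9% of its span, and a centred ratio of -1.93 (SE 0.22), at rank 37. RpS6, the small subunit protein that S6 kinase phosphorylates, had CLIP levels of 29.7, 76.2 and 18.9 reads per bin, against 100.1, 76.1 and 84.1 in input, and a centred ratio of -2.16 (SE 0.21), at rank 15. The region of sta, the fly form of the laminin receptor protein, had rank 8 from the lowest at -2.27 (SE 0.22). All 4 were called lower by limma, with adjusted p between 0.000111 for sta and 0.000182 for RpL3, and none of them was called against regions of like input.

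Ribosomal protein spans held 76 of the 269 snoRNA genes in the table, in 29 host genes. A peak overlapped 35 of these 76 (46.1%) in all 3 lists, against 37.2% of all snoRNA genes. Among snoRNA genes in other protein-coding spans, 34 of 137 (24.8%) had one, and among those in no protein-coding span 31 of 56 (55.4%). The hosts with most peaks over snoRNA genes were RpS5a with 16, RpL3 with 14, RpL28 with 11, and RpS16 and RpS7 with 10 each. These hosts were also rich in peaks of any kind, and the 5 genes with most peaks were RpL3 with 30, RpS5a with 28, RpS16 and RpS4 with 22 each, and RpL28 with 21. All 4 snoRNA genes in the span of RpL3 had a peak in all 3 lists, whereas in RpS5a this held for 3 of 14.

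Most regions over snoRNA genes were also called lower. Of the 35 shared ribosomal protein regions over a snoRNA gene, 30 (85.7%) were called lower, and of the 178 over none, 173 (97.2%). The medians were -2.00 ± 0.43 over snoRNA genes and -1.91 ± 0.11 outside them (SD, n = 3 replicates), and the regions over snoRNA genes were the more spread, with an SD over regions of 0.71 against 0.53. In replicate 1 the median over snoRNA genes was the lower, at -2.44 against -2.00, and in replicate 2 the higher, at -1.58 against -1.79. The difference was not tested. The region of RpL30 over snoRNA:Me28S-A2113 (2L:19008601-19008700, minus strand, dm6) had CLIP levels of 104.5, 569.0 and 122.0 reads per bin, against 112.7, 121.0 and 115.0 in input. Input was even over the replicates and CLIP was far higher in replicate 2, the list with the highest median CLIP level. Its centred ratio was -0.16 (limma adjusted p = 0.647), with values of -0.83, 0.40 and -0.04, and without replicate 1 its sign turned, to 0.18. Against regions of other genes with like input it was higher by 2.00 (limma adjusted p = 0.018), the largest such value among the ribosomal protein regions that were called.

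RpS12 holds 2 snoRNA genes, and both had a peak in all 3 lists. The region over snoRNA:Me28S-A774a (3L:13024201-13024300, plus strand, dm6) had CLIP levels of 95.0, 111.5 and 41.5 reads per bin, against 101.0, 49.0 and 64.3 in input. Its centred ratio was -0.74 (limma adjusted p = 0.0784), and against regions of like input it was higher by 1.42 (limma adjusted p = 0.0326). The region over snoRNA:Me28S-A774b had CLIP levels of 88.0, 83.5 and 44.0 reads per bin, against 69.0, 30.5 and 87.0 in input, and was not called in either comparison (limma adjusted p = 0.248 and 0.183). In both host genes the regions outside the snoRNA genes were lower in CLIP. The widest of those in RpL30 had CLIP levels of 36.3, 72.8 and 22.5 reads per bin, against 44.7, 46.5 and 51.6 in input. The widest in RpS12 had CLIP levels of 23.6, 51.3 and 15.2 reads per bin, against 75.1, 55.6 and 55.6 in input. Reads of a free snoRNA and reads of the intron of its host cannot be told apart in these lists.

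**Figure D5:**
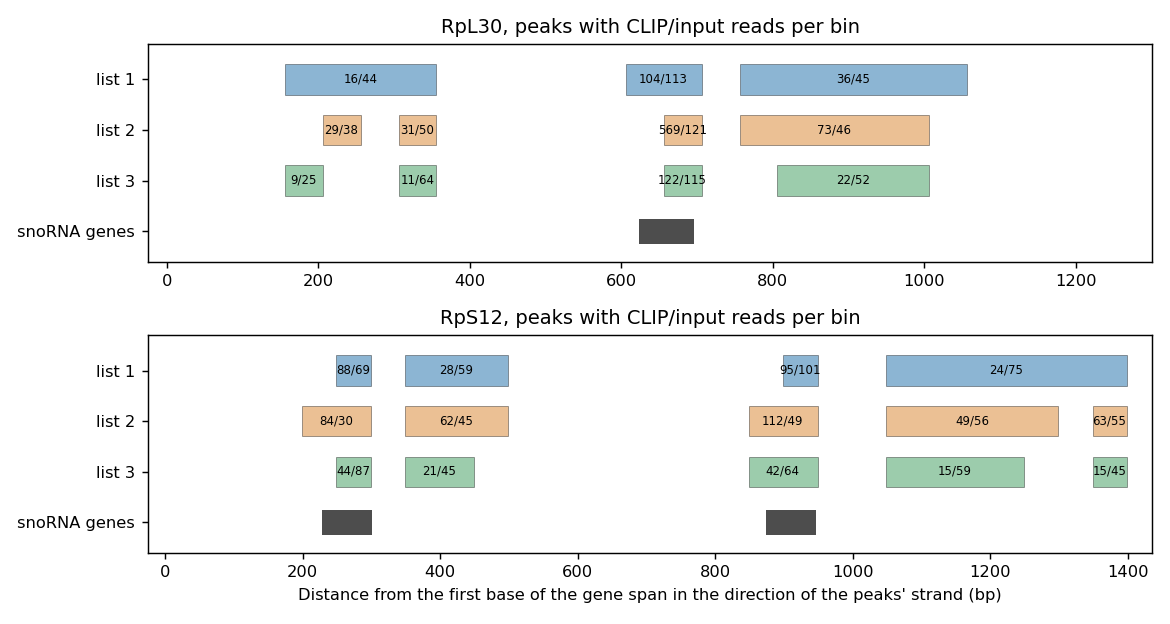
Peaks of RpL30 and RpS12 in lists 1, 2 and 3 against the distance from the first base of the gene span (bp) in the direction of the peaks' strand, with the CLIP reads and the input reads per bin written on each peak as CLIP/input. Grey boxes are snoRNA genes. The peaks over a snoRNA gene have the most CLIP reads of each gene in every list, up to 569 in list 2 of RpL30.

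In RpL3 the 4 regions over snoRNA genes differed among themselves. The region over snoRNA:Me18S-C1096 (3R:11222401-11222500, plus strand, dm6) had CLIP levels of 114.0, 357.5 and 78.0 reads per bin, against 289.1, 143.9 and 190.5 in input. The region over snoRNA:Me18S-A425 had CLIP levels of 18.0, 45.0 and 8.0 reads per bin, against 61.3, 56.0 and 50.0 in input. Their centred ratios were -1.33 (limma adjusted p = 0.00317) and -2.40 (limma adjusted p = 0.000111), and the other 2 regions stood at -2.66 over snoRNA:Psi28S-291 and -1.63 over snoRNA:Me28S-G2017. In RpL28 the region over snoRNA:Or-CD12 stood at -2.43 and that over snoRNA:Me28S-C3351 at -1.91, beside -1.92 for the widest region outside snoRNA genes.

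The 2 regions called lower against regions of like input lay outside snoRNA genes. That of RpL28 (3L:3221901-3221950, minus strand, dm6) had CLIP levels of 35.0, 70.0 and 16.0 reads per bin, against 166.0, 144.0 and 140.0 in input, a difference of -0.83 (limma adjusted p = 0.0402). That of RpL7 (2L:10201101-10201150, plus strand, dm6) had CLIP levels of 14.0, 33.0 and 7.0 reads per bin, against 137.0, 75.0 and 80.0 in input, a difference of -1.30 (limma adjusted p = 0.0153). Both were 1 bin wide. In the top input class mean input started at 66.6 reads per bin, with a median of 98.8 and no upper limit. Regions of like input were thus matched by class and not by exact level.

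In the main comparison, 73 of the 81 genes had all their regions called lower, a count that was not made over other genes. By region, 98.4% of ribosomal protein regions and 93.2% of other regions in the top 2 input classes were called lower. Of the ribosomal protein regions, 10 were not called lower. These 10 were in RpS27A (2 regions, both also in the span of Ip259), RpL30, RpL23, RpS12 (2 regions), RpS4, RpL13A, RpS20 and RpS5a, and 5 of them lay over a snoRNA gene. The region of RpS4 had few input reads, with CLIP levels of 10.5, 35.0 and 9.5 reads per bin, against 6.93, 2.00 and 5.10 in input. It was the 1 ribosomal protein region with a mean above 0, at 0.74 (limma adjusted p = 0.102).

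Across the 213 ribosomal protein regions CLIP reads followed input reads, with a Spearman correlation of 0.433, 0.579 and 0.485 in replicates 1, 2 and 3. Across the 3094 other shared regions it was 0.179, 0.00364 and 0.191. Pearson's r of the log2 levels was much closer between the 2 sets, at 0.55, 0.589 and 0.513 in ribosomal protein regions and 0.492, 0.417 and 0.504 in the others. Between replicates, CLIP reads at the ribosomal protein regions had correlations of 0.819, 0.701 and 0.778. The ratio centred on regions of like input had lower correlations between replicates, of 0.381, 0.484 and 0.508. These are descriptions across regions that share genes, libraries and depth.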

How the data were processed

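Reads were aligned with STAR 2.7.5a, and the builds dm6 and BDGP6 are named, per the submitters' processing notes; the peak caller and the handling of reads that map to several places are not given in the sources used here. The deposited lists have no header, and their columns were read from the values: the authors' signal is CLIP reads per 50-bp bin, a whole number in peaks of 1 bin, and another deposited column holds the mean over bins of the natural log of the input reads. Whether 1 was added before the log is not known, and the mean of logs leans the ratio of CLIP to input upwards in wide peaks. The deposited p-value of a peak was used only to rank peaks.

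Peaks were assigned to genes by their midpoint and the RefSeq Release 6 spans, introns included, read with Python 3.11.15 and pandas 2.3.3. Strand and exons of the genes were not used. Peaks of the same strand that overlapped by at least 1 bp were joined, and regions with a peak of every list were kept, with reads per bin weighted by bins. CLIP was compared with input at all 3307 shared regions with limma 3.58.1 (R 4.3.3) on log2(reads per bin + 1), two-sided and unpaired, each library centred on its median, with Benjamini-Hochberg adjustment over all regions and a threshold of 0.05. On simulated data for this comparison (3307 regions, 200 changed), 84.6% of the log2 changes of 3 and 21% of those of 1.5 were recovered, and 3.41% of the calls were false. Apart from the changes, simulated CLIP and input had the same mean level, and CLIP reads had no floor. In the real lists 1420 regions were called lower and 1325 higher, so these rates need not hold there. Intervals from counting error were not given because the library depths are unknown. Libraries of the same kind differed by more than sampling noise, so none was a copy of another.

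Genes were named by a rule: those without a peak, the 5 highest and 5 lowest ratios, the 5 with most peaks and the 5 with most peaks over snoRNA genes, copies, the stalk proteins, RpL3, RpS6, sta and RpS2. Regions called against like input, RpL21, RpL5 and the regions not called lower were named after their values were seen. The genes, lists and tests were chosen with earlier results of these data known. Of 8 symbols of snoRNA particle proteins, 6 were in the table.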

Additional observations from a re-analysis of the deposited data

How the results depend on the processing

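The number of ribosomal protein genes with a peak in all 3 lists stayed between 79 and 82 under the alternatives run, and was 82 to 83 with a replicate left out. The peaks per list averaged 219.7 to 262.7 under the alternatives, and 263 to 277 with a replicate left out. The shared regions numbered 149 to 213 under the alternatives and 223 to 230 in pairs of lists. With a replicate left out, the lower calls numbered 200 to 202, the higher calls 0 to 1 (1 without replicate 1), and the median ran from -2.00 to -1.85. CLIP and input of the same number deviated little together (correlations 0.0288, -0.0407 and 0.159 over the regions). With 3 replicates this cannot show whether libraries of the same number were paired, as the deposited lists join them. The main fit left that pairing out. The replicate block gave 205 lower and 0 higher calls, beside 203 and 0 without it, and moved no count by over 1.5 times.

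Lower calls numbered 71 (of 73 regions) with only intervals of the same ends, where fewer regions were tested and 279 of all 644 were lower. They numbered 40 of 209 with at least 10 input reads per bin in every list, against 108 of all 1565 regions. Centring within input classes gave 4 of 213, against 22 of all 3307 regions. Classes centred on other genes gave 2 of 213, against 20 of all 3307. Higher calls numbered 5, 4 and 4 under these last 3, against 166, 135 and 134 over all regions. The median moved to -1.67 with a pseudocount of 5, to -0.41 with the input minimum, and turned to 0.05 and 0.13 with both class centrings. These settings leave out or level the regions of low input, by construction.

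Some of the 19 named regions turned positive as well. With input classes, and with input classes centred on other genes, the values were 0.32 and 0.43 in RpL3, 1.89 and 2.00 in RpL30 over the snoRNA gene, 0.66 and 0.69 in RpL34b, 0.78 and 0.89 in RpLP1, 0.49 and 0.60 in RpLP2, 1.31 and 1.42 in RpS12, 1.01 and 1.03 in RpS15, 0.12 and 0.23 in RpS2, 0.86 and 0.85 in RpS27, and 0.80 and 0.83 in RpS30. Of these, limma called RpL30, RpS12, RpS15 and RpS27 higher with both centrings and called none of the rest. The values stayed negative and were not called in RpL14, RpL24-like, RpL27, RpLP0, RpS14b, RpS16, RpS27A, RpS6 and sta. With the input minimum the positive values were 0.46 in RpL24-like, 1.36 in RpL30, 0.36 in RpL34b, 0.25 in RpLP1, 0.78 in RpS12, 0.71 in RpS15, 0.73 in RpS27 and 0.50 in RpS30. There RpL30, RpS15 and RpS27 were called higher. RpL14, RpL27, RpS16, RpS27A and sta were called lower. With a replicate left out, RpL30 ran from -0.44 to 0.18, and was positive without replicate 1. The RpS12 region over snoRNA:Me28S-A774a was called lower with the replicate block (-0.74, limma adjusted p = 0.0143). Over the 19 named regions and all alternatives, 135 of 191 values kept direction and call. The centring on other genes was added after seeing the data, and its calls were not repeated with a replicate left out. The choice of peaks on the strand of the gene was not run. Few reads limited RpL24-like and RpS4.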
